A study of Mus musculus with 65 samples.

Results

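HORMAD1 peaks were compared between wild-type mice and mice that lack SPO11, the enzyme that cuts DNA to start meiotic recombination. The members were all HORMAD1 peaks of both genotypes, 1715 in the wild type and 2897 in Spo11KO, of 45774 peaks in the 21 MEI4, IHO1, HORMAD1 and SYCP3 lists of the series. A peak was called shared when it overlapped a peak of the other genotype by at least 1 bp, and otherwise wild-type only or Spo11KO only. Both genotypes carry the C57BL/6JCrl background. The wild type has no engineered allele, and the knockout carries Spo11tm1Mjn (Spo11KO). HORMAD1 lists of Mei4KO (Mei4tm1Bdm), Iho1KO (Iho1tm1.2Atot) and Prdm9KO (B6;129P2-Prdm9tm1Ymat/J) mice, treated alike, are set beside them, as are MEI4, IHO1 and SYCP3 lists of the wild type and Spo11KO. The tissue was whole testis from pups aged 1.5 days at the start. They were fed a compound that the labels name WIN 18,466 for 7 to 10 days and then injected once with retinoic acid. Testes were taken 8 days later. Leptotene and zygotene spermatocytes then made up 80 to 95% of them, per the labels, so other testis cells also entered the chromatin. Per the labels, each HORMAD1 group has 2 samples and the SYCP3 group of Spo11KO has 1, and 1 peak list was analysed per group. Signal of Hormad1KO (Hormad1tm1.2Atot) chromatin had been subtracted from both lists, per the series' design text. No difference between the genotypes therefore has a replicate check, and no p-value was computed. All intervals are at 95%, count peaks as independent and hold counting error alone. A difference was called where its interval excluded 0.

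HORMAD1 is a HORMA-domain protein of the meiotic chromosome axis, the protein core along which each pair of sister chromatids is folded into loops. IHO1 binds HORMAD1 and, with MEI4, belongs to the machinery that lets SPO11 cut. SYCP3 is another core component of the axis. PRDM9 marks the places where breaks are made, called hotspots, and DMC1 is a recombinase loaded on the resected DNA ends of a break. CTCF is a DNA-binding protein that, with cohesin, anchors chromatin loops. HORMAD1 is known to assemble on axes before breaks are made and to be removed where homologous chromosomes synapse.

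The sites used to describe the peaks were 13808 wild-type DMC1 hotspots, ranked by a deposited value whose unit was not named, and 32676 wild-type CTCF peaks, ranked by a deposited score. Both are the authors' values and rank sites within their own list. The series also has CTCF samples of Spo11KO, which were not used. A CTCF peak below is therefore always a wild-type one, and CTCF in the mutant was not examined. The HORMAD1, MEI4, IHO1 and SYCP3 lists hold positions without a strength, so a peak's width is its only measured size. Sequencing depth was not given, and the length of a list is not a measure of binding.

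Sequence is shown for 4 gene promoters that lay whole inside a HORMAD1 peak and at a CTCF peak, to give an example of the CTCF-type sites described below. Bola2, which encodes an iron-sulfur cluster assembly factor, and Pigo, which encodes an enzyme of glycosylphosphatidylinositol anchor synthesis, lay in peaks called in Spo11KO only. Wdr38 and Pdzd9 lay in shared peaks. They have the highest CTCF scores in their class among promoters that hold the core letters of the CTCF motif, which are CC, 3 bases of any kind, AG, 2 bases of any kind and GGC, and were picked after the values were seen. Each line gives the 250 bases before the gene's start on the gene's strand, from RefSeq (assembly GRCm38.p6, the mm10 build), with these letters, read on either strand, in capitals.
Bola2: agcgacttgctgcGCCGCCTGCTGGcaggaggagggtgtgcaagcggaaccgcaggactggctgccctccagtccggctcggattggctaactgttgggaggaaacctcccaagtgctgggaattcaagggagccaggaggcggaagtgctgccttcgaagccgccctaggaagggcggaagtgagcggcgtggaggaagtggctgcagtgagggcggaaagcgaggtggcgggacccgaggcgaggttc
Pigo: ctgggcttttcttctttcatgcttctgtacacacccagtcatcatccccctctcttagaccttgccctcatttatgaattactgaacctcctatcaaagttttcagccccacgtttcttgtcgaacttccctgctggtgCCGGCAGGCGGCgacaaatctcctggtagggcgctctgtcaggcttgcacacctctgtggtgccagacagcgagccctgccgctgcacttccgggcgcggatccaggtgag
Wdr38: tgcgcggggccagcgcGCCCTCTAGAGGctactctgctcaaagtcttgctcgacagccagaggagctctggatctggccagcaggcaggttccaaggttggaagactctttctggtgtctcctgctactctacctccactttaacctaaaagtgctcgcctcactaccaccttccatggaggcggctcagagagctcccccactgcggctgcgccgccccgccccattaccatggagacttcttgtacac
Pdzd9: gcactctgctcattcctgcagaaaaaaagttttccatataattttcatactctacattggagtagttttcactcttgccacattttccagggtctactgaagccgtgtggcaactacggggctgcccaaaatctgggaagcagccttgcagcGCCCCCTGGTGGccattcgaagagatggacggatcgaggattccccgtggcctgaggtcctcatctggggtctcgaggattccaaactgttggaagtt
The Bola2 bases are chr7:126695750-126695999 on the plus strand, inside the Spo11KO peak chr7:126694861-126697139 (2279 bp) with a CTCF score of 5.95. The Pigo bases are chr4:43025775-43026024 on the minus strand, inside chr4:43025127-43026153 (1027 bp) with a score of 5.48. The Wdr38 bases are chr2:38998059-38998308 on the plus strand, inside chr2:38996993-38999962 (2970 bp) with a score of 4.38. The Pdzd9 bases are chr7:120670251-120670500 on the minus strand, inside chr7:120669149-120670774 (1626 bp) with a score of 4.07. None of the 4 peaks overlapped a MEI4 or IHO1 peak in either genotype, and SYCP3 of Spo11KO had a peak at Bola2. All 4 overlapped a HORMAD1 peak of Iho1KO. The letters were in 1744 of 21263 promoter windows (8.20%) and in 453 of the 3217 windows at a CTCF peak (14.1%). They were in 8 of 38 windows (21.1%) in Spo11KO-only peaks at CTCF peaks, 4 of 28 (14.3%) in shared peaks at CTCF peaks and 0 of 13 in wild-type-only ones.

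Of the wild-type peaks, 1123 (65.5%, Wilson interval 63.2 to 67.7) were found again without SPO11, and 592 were not. Of the Spo11KO peaks, 1117 (38.6%, 36.8 to 40.3) were found in the wild type and 1780 were not. Both lists covered a like length of genome, 6.03 Mb in the wild type and 6.15 Mb in Spo11KO, the knockout list being made of more and narrower peaks. Median width was 2641 bp in the wild type and 1623 bp in Spo11KO. Within the wild-type list, shared peaks had a median width of 2560 bp (2430 to 2753) and wild-type-only peaks of 2793 bp (2554 to 3080). Within the knockout list, shared peaks measured 1830 bp (1760 to 1892) and Spo11KO-only peaks 1488 bp (1450 to 1541). Most overlaps were between single peaks: 1105 of the shared wild-type peaks met exactly 1 knockout peak and 18 met more. These shares moved with how overlap was counted, as given in the closing section.

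The wild-type-only peaks were mostly hotspot peaks, and the Spo11KO-only peaks mostly CTCF peaks. Of the wild-type-only peaks, 60.0% lay at a DMC1 hotspot, against 31.4% of shared wild-type peaks (difference 28.5 percentage points, Newcombe interval 23.7 to 33.2) and 41.3% of the whole wild-type list. At CTCF peaks the order was reversed, with 20.4% of wild-type-only and 51.4% of shared peaks (difference -30.9 points, -35.2 to -26.4; whole list 40.7%). Of the Spo11KO-only peaks, 21.2% lay at a hotspot, against 30.2% of shared knockout peaks (difference -8.93 points, -12.2 to -5.66) and 24.7% of the whole knockout list. At CTCF peaks lay 56.7% of Spo11KO-only and 52.1% of shared knockout peaks (difference 4.64 points, 0.914 to 8.35; whole list 55.0%). This last difference was not stable: it was -1.23 points (-5.25 to 2.88) with hotspot peaks left out, and 0.00169 with 1 kb windows at the peak centres. The hotspot difference of the wild-type classes fell to 8.27 points (3.65 to 12.9) when 50% of the shorter of 2 intervals had to overlap, and to 11.6 when the knockout list was cut to its 1715 widest peaks. That cut also brought the wild-type CTCF difference to -13.4 points. The hotspot difference of the knockout classes was -30.5 points among the wider 50% of each list, and -5.78 when averaged within 4 classes of peak width.

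**Figure D1:**
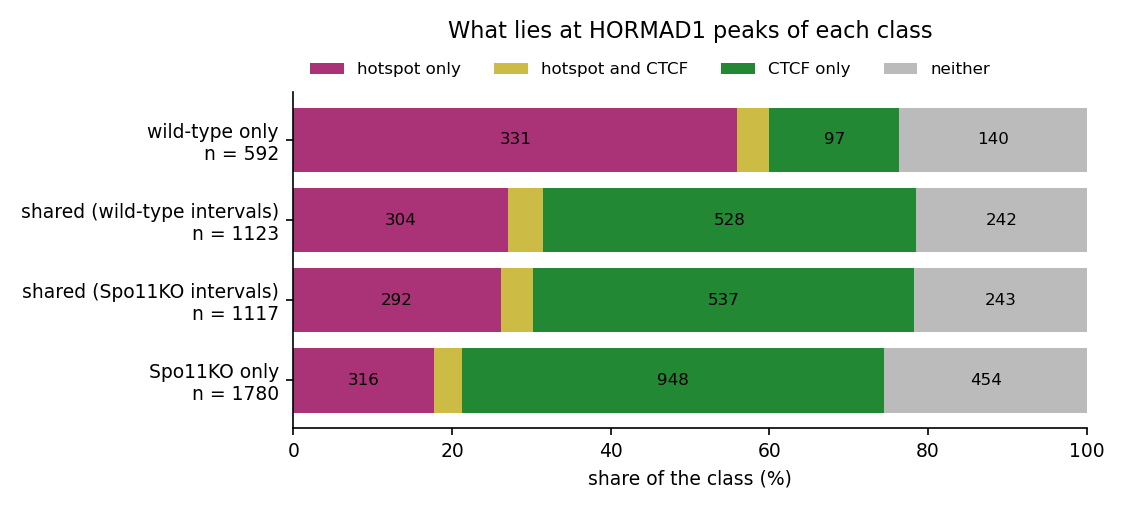
Share of each HORMAD1 peak class (horizontal axis, percent of the class) that lay at a DMC1 hotspot only, at both a hotspot and a CTCF peak, at a CTCF peak only, or at neither; numbers in the bars are peaks. Hotspot-only peaks made up 331 of 592 wild-type-only peaks and 316 of 1780 Spo11KO-only peaks.

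Sorted by what lies under them, the HORMAD1 peaks fell into 4 kinds with different turnover. Of 635 wild-type peaks at a hotspot and no CTCF peak, 304 (47.9%, 44.0 to 51.8) were found in Spo11KO. Of 625 at a CTCF peak and no hotspot, 528 (84.5%, 81.4 to 87.1) were found. Of 73 at both, 49 were found, and of 382 at neither, 242 (63.4%, 58.4 to 68.0). Read from the knockout, the hotspot-only kind was as large as in the wild type, with 608 peaks, of which 292 (48.03%, 44.1 to 52.0) overlapped a wild-type peak. The CTCF-only kind held 1485 knockout peaks, of which 537 (36.2%, 33.8 to 38.6) overlapped a wild-type peak and 948 did not. The hotspot-only kind thus had a similar number of peaks in both genotypes while about as many were unique to one genotype as shared, and the CTCF-only kind of the wild type was nearly contained in a longer knockout list.

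The largest change in size was at hotspots, where HORMAD1 peaks were narrower without SPO11. For this comparison only pairs were used in which each peak overlapped exactly 1 peak of the other list, which left 1063 pairs. At 280 hotspot-only pairs the median width was 5550 bp (5373 to 5748) in the wild type and 1885 bp (1773 to 1953) in Spo11KO. The median log2 ratio of widths was -1.49 (-1.54 to -1.42), and 267 of the 280 knockout peaks were narrower (95.4%, 92.2 to 97.3), against 73.6% of all pairs. In 236 of the 280 pairs the knockout peak lay wholly inside the wild-type peak. At 524 CTCF-only pairs the medians were 1943 bp and 1692 bp, the log2 ratio was -0.14 (-0.19 to -0.10) and 338 were narrower (64.5%). The share of narrower pairs was 30.9 points higher at hotspots than at CTCF peaks (25.8 to 35.5). The 40 pairs at both kinds of site went from 4792 to 2252 bp, and the 219 pairs at neither from 2201 to 2028 bp (log2 ratio -0.15). The hotspot ratio stayed between -1.43 and -1.50 under the alternatives run. The CTCF ratio was -0.35 among the wider 50% of each list and -0.04 with lists of equal length.

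**Figure D2:**
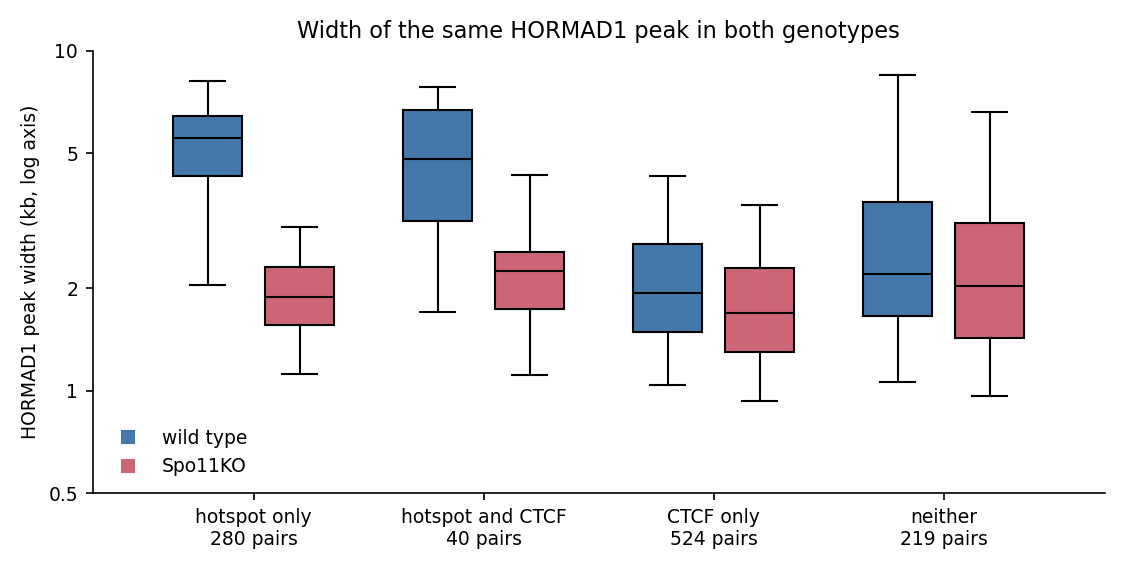
Width of HORMAD1 peaks (vertical axis, kb, log scale) in 1063 pairs of overlapping peaks, by kind of site, in the wild type and Spo11KO; lines are medians, boxes quartiles and whiskers the 5th and 95th percentiles. At hotspots the boxes of the 2 genotypes do not overlap, with medians of 5550 and 1885 bp, and at CTCF peaks they do.

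Hotspot peaks over 5 kb were nearly all in the wild-type list. They made up 182 of 304 shared wild-type hotspot-only peaks (59.9%) and 104 of 331 wild-type-only ones (31.4%). In the knockout they were 5 of 292 shared (1.71%) and 7 of 316 Spo11KO-only peaks (2.22%). Among the hotspot-only pairs the narrowing had much the same size over their own range of DMC1 values. Most of these pairs were at strong hotspots. The median value was 2294.5 in their weakest class below, against 129 over all hotspots, so weaker hotspots were little covered. In 4 equal classes of the DMC1 value, 70 pairs each, the wild-type medians were 4948, 5423, 5677 and 6547 bp from the weakest class to the strongest. The knockout medians were 1711, 1853, 1752 and 2125 bp. The log2 ratios were -1.46, -1.45, -1.53 and -1.48, and their intervals overlapped.

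Both examples at Erbb4, a neuregulin receptor gene with very strong hotspots nearby, show the nested form. The knockout peak chr1:68487790-68490190, inside the gene, measured 2401 bp, and the wild-type peak around it, chr1:68485638-68492075, measured 6438 bp, at a hotspot with a DMC1 value of 18961. The knockout peak chr1:67960426-67963757, 68127 bp from the gene, measured 3332 bp inside the wild-type peak chr1:67958374-67965511 of 7138 bp, at a value of 18266.5. At the strongest hotspot of the shared class, inside Dennd1a (a gene for a regulator of endocytic vesicle traffic; DMC1 value 20513.5), 1 knockout peak, chr2:38136222-38139260, touched 2 wild-type peaks. These were chr2:38135195-38136312 and chr2:38136859-38141393, with the gap between them inside the knockout peak.

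Measured from the hotspot centre, the wild-type peaks reached out to both sides and the knockout peaks stayed at the centre. HORMAD1 peaks lay at 341 hotspots in both genotypes (2.47% of all hotspots), at 308 in the wild type only (2.23%) and at 370 in Spo11KO only (2.68%). At the 341 hotspots, the centre was covered at 308 (90.3%) in the wild type and at 332 (97.4%) in Spo11KO. The points 2 kb to each side were both covered at 259 (76.0%, 71.1 to 80.2) in the wild type and at 6 (1.76%, 0.809 to 3.79) in Spo11KO. At the 308 wild-type-only hotspots the centre was covered less often, at 216 (70.1%), and both 2 kb points at 160 (51.9%). Both 2 kb points but not the centre were covered at 22 of these, and 31 held at least 2 peaks. At the 370 Spo11KO-only hotspots the centre was covered at 363 (98.1%), both 2 kb points at 8 (2.16%), and none had covered flanks with an open centre. Of 378 Spo11KO-only peaks at hotspots, 9 were at a hotspot that a wild-type peak also touched, so few of them were centres between wild-type flanks.

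**Figure D3:**
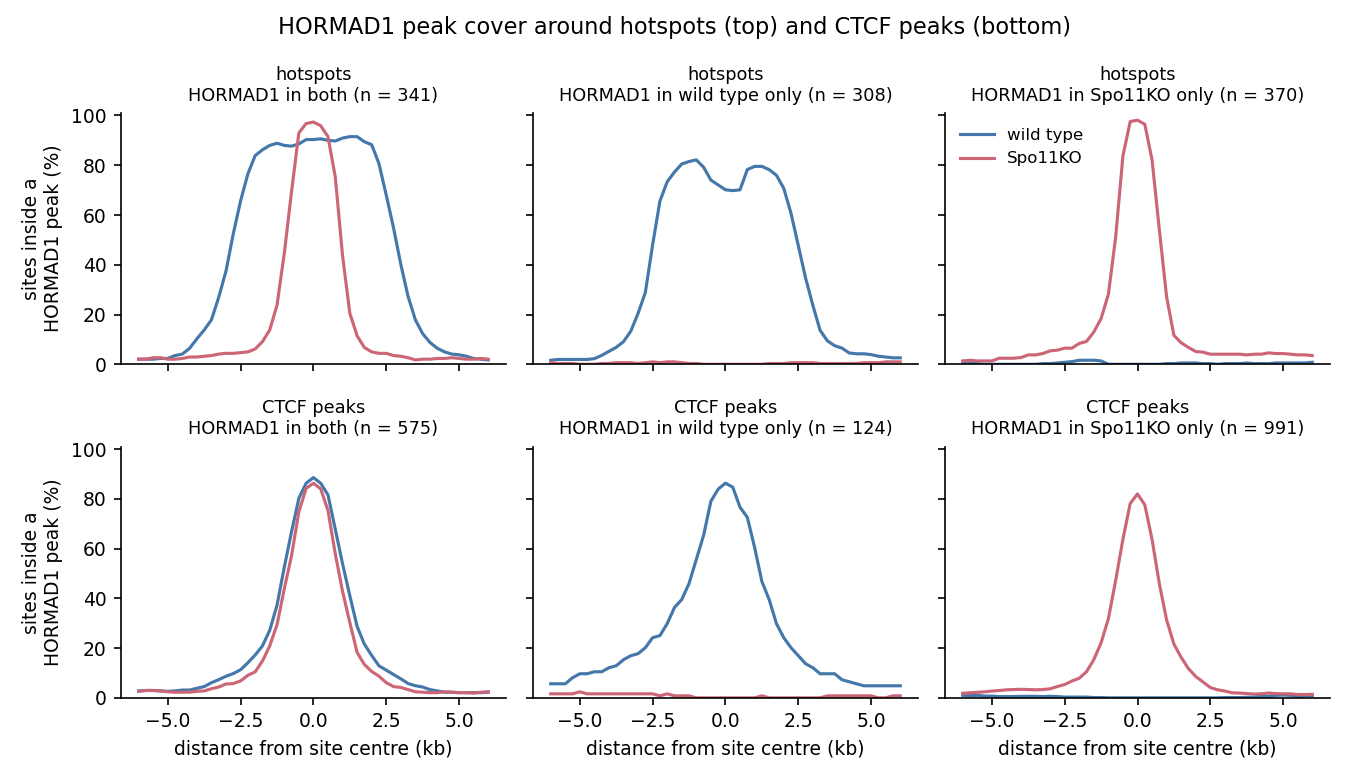
Share of sites inside a HORMAD1 peak (vertical axis, percent) by distance from the centre of the site (horizontal axis, kb) at DMC1 hotspots (top) and CTCF peaks (bottom) with HORMAD1 peaks in both genotypes, in the wild type only and in Spo11KO only. At hotspots wild-type cover extends past 2 kb on each side (76.0% of the 341 hotspots in both), and knockout cover does not (1.76%). At the 575 CTCF peaks with HORMAD1 in both, the curves are more alike. There 17.2% in the wild type and 10.4% in Spo11KO are covered 2 kb to the left of the centre.

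Other proteins of the same cells are set beside this, each with its own wild-type list and its own set of pairs. The pairs were not limited to the same sites for each protein. The sets can overlap in part, and the intervals between proteins count them as independent. For SYCP3 at hotspots, 336 pairs went from a median of 5370.5 bp to 1855 bp (log2 ratio -1.52), and 326 were narrower (97.0%). For IHO1, 361 pairs went from 4496 to 1995 bp (-0.99), with 309 narrower (85.6%). For MEI4, 1286 pairs had medians of 1941 and 1916 bp (-0.04), with 697 narrower (54.2%). The share of narrower hotspot pairs of HORMAD1 was above that of IHO1 by 9.76 points (5.25 to 14.2) and above that of MEI4 by 41.2 points (37.0 to 44.5). From that of SYCP3 it differed by -1.67 points (-5.08 to 1.41), which was not called. At CTCF peaks IHO1 and SYCP3 pairs had log2 ratios of 0.08 and 0.01, and HORMAD1 pairs were narrower more often than those of IHO1 by 20.3 points (12.2 to 28.1) and than those of SYCP3 by 16.2 points (7.81 to 24.3). In the other HORMAD1 lists, which are compared with the same wild-type list, 61 hotspot pairs of Iho1KO went from 6201 to 2098 bp (-1.44). In Mei4KO only 22 hotspot pairs were found (5653.5 and 3760 bp, log2 ratio -0.17). The interval of this ratio, -1.30 to 0.48, held both narrowing and widening. The CTCF pairs of Mei4KO widened from 1861 to 3304 bp (0.64).

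Hotspots with a HORMAD1 peak in Spo11KO only were weaker than those with one in the wild type only. The deposited DMC1 value had a median of 3819.5 at hotspots with HORMAD1 in both genotypes, 2633 at those in the wild type only, 1307 at those in Spo11KO only and 114.5 at those in neither. The interval of the Spo11KO-only median (1128 to 1448) lay below that of the wild-type-only median (2482 to 2923). With the 50% overlap these medians were 1395.5 and 2607. Among the strongest 10% of hotspots, 565 of 1381 (40.9%) had a peak in the wild type and 491 (35.6%) in Spo11KO, a difference of -5.36 points (-8.35 to -2.35) when 1 shared base counted as overlap. This difference was not robust to the overlap rule. With the 50% overlap the shares were 34.4% and 35.6% (1.16 points, -1.71 to 4.02), and with 1 kb windows at the peak centres 37.2% and 35.5% (-1.74 points, -4.72 to 1.25). Neither was called, and the first had the other sign. With lists of equal length, which leave fewer knockout peaks, the difference was -14.8 points (-17.6 to -11.9), and with the wider 50% of each list it was -11.4 points (-14.0 to -8.71). In the next 10%, 22 (1.59%) had a peak in the wild type and 103 (7.46%) in Spo11KO, a difference of 5.87 points (4.47 to 7.39). In the class after that, 11 (0.797%) and 39 (2.82%) did (2.03 points, 1.13 to 3.05). Over the strongest 25% together the shares were 17.2% and 18.02% and the difference, 0.840 points (-0.539 to 2.22), was not called. Its sign depended on the overlap rule and list length, from -4.90 with lists of equal length to 3.71 with the 50% overlap. The difference in the second strongest 10% was 1.88 points (0.805 to 3.03) with lists of equal length.

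At CTCF peaks HORMAD1 peaks were more frequent in Spo11KO across most of the score range. HORMAD1 was at 575 CTCF peaks in both genotypes (1.76% of all CTCF peaks), at 124 in the wild type only (0.379%) and at 991 in Spo11KO only (3.03%). Among the highest-scoring 10%, 359 of 3268 (10.99%) had a peak in the wild type and 728 (22.3%) in Spo11KO, a difference of 11.3 points (10.1 to 12.5). Among the highest 25% the shares were 6.51% and 14.1% (7.58 points, 6.95 to 8.23), and in the lowest 25% 0.294% and 0.441% (0.147 points, -0.0197 to 0.322), which was not called. Median CTCF score was 4.06 at CTCF peaks with HORMAD1 in both, 3.22 in the wild type only, 3.56 in Spo11KO only and 1.85 in neither. This increase moved with list length: with the 1715 widest knockout peaks it was 1.02 points (0.460 to 1.58) in the highest 25%, and among the wider 50% of each list 4.28.

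**Figure D4:**
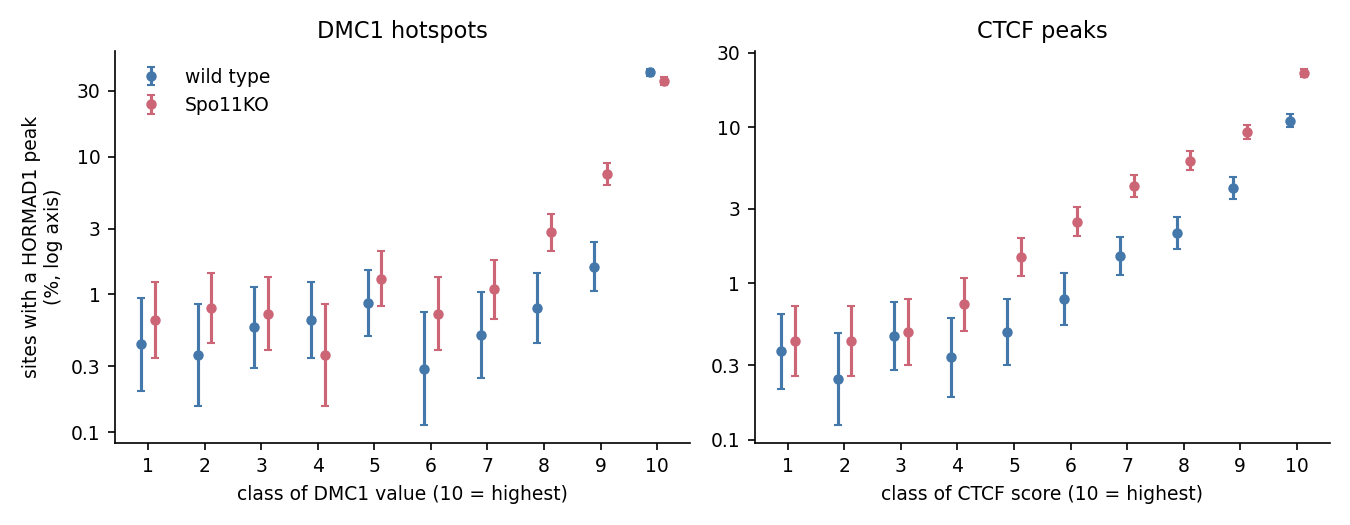
Share of sites with a HORMAD1 peak (vertical axis, percent, log scale) in 10 equal classes of the deposited DMC1 value of hotspots (left) and of the deposited score of CTCF peaks (right); points are shares and bars Wilson 95% intervals. With 1 shared base counted as overlap, the wild type is at 40.9% and Spo11KO at 35.6% in the strongest class of hotspots, a difference that is not called with the 50% overlap (34.4% and 35.6%). Spo11KO is higher in the class below it (1.59% and 7.46%), and at CTCF peaks Spo11KO is higher in the top class (10.99% and 22.3%).

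The strongest sites of each class have names. The wild-type-only peak at the strongest hotspot was chr11:89607538-89617339 inside Ankfn1, 9802 bp wide at a DMC1 value of 20822.5. It was followed by chr10:92676861-92684169 at Nedd1, a gene for a centrosome protein (7309 bp, value 18957.5), and chr2:98106097-98112422, 474425 bp from Lrrc4c (6326 bp, value 17661.5). The wild-type lists of IHO1 and SYCP3 had a peak at all 3. Spo11KO-only peaks at the strongest hotspots included chr12:34593976-34596384 inside Hdac9, a histone deacetylase gene (2409 bp, value 17525), and chr16:45682392-45685058 inside Tmprss7 (2667 bp, value 13305.5). MEI4, IHO1 and SYCP3 of Spo11KO had a peak at both of these, and so did wild-type MEI4 and SYCP3. A hotspot of the highest DMC1 value could therefore be in any class, and the medians above describe the classes rather than single sites.

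At the CTCF peaks with the highest scores, the shared peaks were chr9:124256354-124257854, 10030 bp from Gm39469 (score 31.4), chrX:75672474-75674985, 94243 bp from Rab39b, a gene for a small GTPase of vesicle transport (13.5), and chr17:3083070-3083793, 31179 bp from Scaf8 (13.1). The first of these overlapped a peak in every MEI4, IHO1, SYCP3 and HORMAD1 list examined. The chr17 peak did so in all of them but the wild-type MEI4 list. It also lay at a hotspot with a DMC1 value of 55.5, so it is a peak at both kinds of site. Spo11KO-only peaks included chr7:135735231-135736775, 18781 bp from the proliferation antigen gene Mki67 (9.80), and chr2:148901130-148903501, 25618 bp from the cystatin gene Cst3 (9.31). Both were also in the HORMAD1 list of Mei4KO. Wild-type-only peaks were chr14:124801581-124802184, 123895 bp from Fgf14 (604 bp wide, 37.35), chr8:45934348-45937188 at Ccdc110 (8.43) and chr13:9845738-9848003, 27483 bp from Chrm3, a muscarinic acetylcholine receptor gene (7.57).

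The MEI4, IHO1 and SYCP3 lists of Spo11KO show which HORMAD1 peaks lay with the break machinery and axis of the same mutant. Of all Spo11KO HORMAD1 peaks, 22.3% lay at a MEI4 peak, 37.0% at an IHO1 peak and 24.7% at a SYCP3 peak. Spo11KO-only peaks had each protein less often than shared ones. The shares were 18.8% and 27.8% for MEI4 (difference -9.08 points, -12.3 to -5.91), 26.4% and 53.8% for IHO1 (-27.4 points, -30.9 to -23.8), and 15.0% and 40.2% for SYCP3 (-25.2 points, -28.5 to -21.9). The MEI4 difference was -28.4 points among the wider 50% of each list and -1.57 with hotspot peaks left out. The whole classes mix hotspot and CTCF peaks in different shares, and the 2 kinds differ in these proteins, so each kind is given by itself.

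At hotspots, Spo11KO-only HORMAD1 peaks had MEI4 and IHO1 nearly as often as shared ones. MEI4 was at 290 of 316 Spo11KO-only (91.8%, 88.2 to 94.3) and at 264 of 292 shared hotspot-only peaks (90.4%, 86.5 to 93.3), a difference of 1.36 points (-3.21 to 6.04). IHO1 was at 255 (80.7%) and 248 (84.9%), a difference of -4.24 points (-10.2 to 1.81). Neither difference was called, and each interval allows a difference of several points. SYCP3 was at 113 (35.8%) and 181 (62.0%), a difference of -26.2 points (-33.6 to -18.4). Of the whole wild-type list, 35.4% of peaks lay at Spo11KO MEI4, 51.9% at IHO1 and 36.0% at SYCP3. The 331 wild-type-only peaks at hotspots had Spo11KO MEI4 at 77.6%, IHO1 at 61.6% and SYCP3 at 22.7%. Their differences from shared wild-type hotspot peaks were -12.2 points for MEI4 (-17.8 to -6.45), -21.9 points for IHO1 (-28.4 to -15.1) and -38.5 points for SYCP3 (-45.3 to -31.2). Of all 635 wild-type peaks at hotspots only, 83.5% lay at Spo11KO MEI4 and 72.1% at Spo11KO IHO1. Most wild-type-only hotspot peaks thus lay at a MEI4 and at an IHO1 peak of Spo11KO, but less often than the whole kind. A high share at hotspots was therefore not particular to the wild-type-only class.

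The wild-type lists give the other side of the Spo11KO-only hotspot peaks. Wild-type MEI4, IHO1 and SYCP3 were at 17.0%, 28.7% and 32.0% of all Spo11KO HORMAD1 peaks, and at 28.6%, 54.7% and 59.5% of all wild-type ones. Of these 316 peaks, 197 (62.3%) lay at a wild-type MEI4 peak, 137 (43.4%) at a wild-type SYCP3 peak and 47 (14.9%, 11.4 to 19.2) at a wild-type IHO1 peak. In the shared class the same lists were at 68.8%, 90.4% and 72.3% of the 292 peaks. IHO1 at the Spo11KO-only peaks therefore stood at 80.7% in the Spo11KO list and 14.9% in the wild-type list, while MEI4 stood at 91.8% and 62.3%. For all 608 Spo11KO hotspot-only peaks these shares were 82.7% and 42.4% for IHO1 and 91.1% and 65.5% for MEI4. The MEI4 contrast was thus near that of the whole kind. The Spo11KO lists also reached more hotspots than the wild-type ones, 1962 against 572 for IHO1 and 3770 against 1513 for MEI4.

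At CTCF peaks away from hotspots, few HORMAD1 peaks of any class lay at MEI4. It was at 1 of 97 wild-type-only (1.03%), 2 of 948 Spo11KO-only (0.211%) and 9 of 537 shared CTCF-only peaks (1.68%). IHO1 of Spo11KO was at 102 (10.8%, 8.94 to 12.9) and 214 (39.9%, 35.8 to 44.0), a difference of -29.1 points (-33.7 to -24.5). SYCP3 was at 48 (5.06%) and 149 (27.7%), a difference of -22.7 points (-26.8 to -18.7). The 97 wild-type-only CTCF peaks had IHO1 at 31 (31.96%) and SYCP3 at 29 (29.9%). Their differences from shared wild-type peaks, -8.00 points (-17.4 to 2.63) and 2.62 points (-6.48 to 13.01), were not called. The 948 CTCF-only peaks unique to Spo11KO were thus HORMAD1 peaks where the other 3 proteins were seldom called. Their median width was 1394.5 bp, against 1698 bp in the shared class. At peaks with neither kind of site, IHO1 was at 16.5% of 454 Spo11KO-only and 44.4% of 243 shared peaks (-27.9 points, -34.9 to -20.8).

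**Figure D5:**
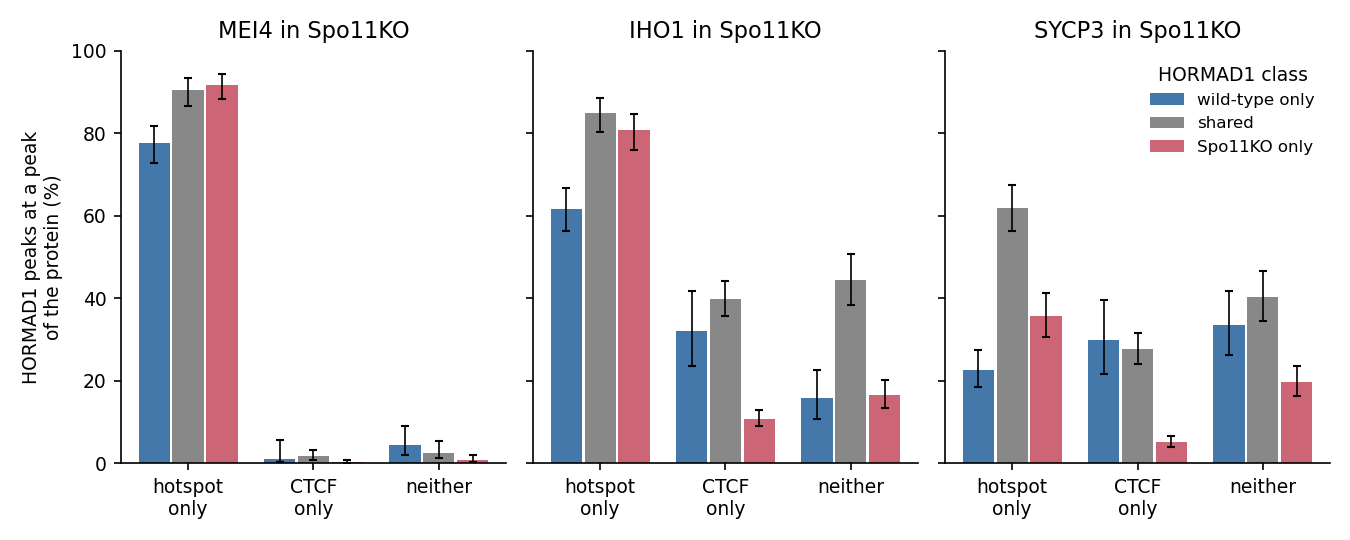
Share of HORMAD1 peaks (vertical axis, percent) that overlapped a MEI4, IHO1 or SYCP3 peak of Spo11KO, by kind of site and HORMAD1 class, with shared peaks taken by their Spo11KO interval; bars are shares and whiskers Wilson 95% intervals. MEI4 and IHO1 are high at hotspots in all 3 classes (91.8% and 80.7% in Spo11KO-only peaks), and IHO1 and SYCP3 are lower in Spo11KO-only than in shared peaks at CTCF sites (10.8% against 39.9% and 5.06% against 27.7%).

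Most hotspots with a MEI4 or IHO1 peak in Spo11KO had no HORMAD1 peak there. MEI4 of Spo11KO had peaks at 3770 hotspots (27.3% of all), and 623 of them (16.5%, 15.4 to 17.7) had a HORMAD1 peak. IHO1 had peaks at 1962 (14.2%), of which 570 had HORMAD1 (29.1%, 27.1 to 31.1), and SYCP3 at 794 (5.75%), of which 329 did (41.4%, 38.1 to 44.9). In the wild type the same shares were 428 of 1513 MEI4 hotspots (28.3%), 428 of 572 IHO1 hotspots (74.8%) and 543 of 1031 SYCP3 hotspots (52.7%). Among the strongest 25% of hotspots, HORMAD1 was at 543 of 1716 with IHO1 in Spo11KO (31.6%) and at 402 of 528 in the wild type (76.1%). The number with both was thus higher in Spo11KO, and the share was lower over a larger IHO1 set. Hotspots of this 25% without an IHO1 peak had HORMAD1 at 4.55% in Spo11KO and 6.53% in the wild type.

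The HORMAD1 lists of other mutants show where the Spo11KO-only peaks recurred. Those lists carry the same Hormad1KO subtraction and their thresholds are not given, so their shares are given side by side without a test. Mei4KO, Iho1KO and Prdm9KO had a HORMAD1 peak at 47.0%, 60.0% and 28.3% of all Spo11KO peaks, and at 33.6%, 49.6% and 36.3% of all wild-type peaks. The shares were 50%, 57.1% and 15.2% for the 1780 Spo11KO-only peaks, 42.3%, 64.6% and 49.1% for the shared ones, and 18.8%, 20.9% and 10.6% for the 592 wild-type-only ones. By kind, the 948 CTCF-only Spo11KO-only peaks were found in Mei4KO for 625 (65.9%), in Iho1KO for 693 (73.1%) and in Prdm9KO for 171 (18.04%). The 316 hotspot-only ones were found for 21 (6.65%), 30 (9.49%) and 1 (0.316%). Of all Spo11KO CTCF-only peaks, 64.8% were found in Mei4KO, 78.7% in Iho1KO and 36.7% in Prdm9KO. Of all wild-type ones 61.1%, 85.0% and 64.0% were found. Of all hotspot-only peaks, Mei4KO and Iho1KO had 5.43% and 12.3% for Spo11KO, and 3.78% and 10.6% for the wild type. CTCF peaks were thus mostly also peaks in mice lacking MEI4 or IHO1, and hotspot peaks seldom so. This held in the whole lists of both genotypes and was not particular to Spo11KO-only peaks.

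On the X chromosome HORMAD1 peaks were fewer without SPO11. There were 72 X peaks of 1715 in the wild type (4.20%, 3.35 to 5.25) and 37 of 2897 in Spo11KO (1.28%, 0.928 to 1.76), a difference of -2.92 points (-4.03 to -1.94). On autosomes the number of peaks was higher in Spo11KO on every chromosome, by 1.32 times on chromosome 16 to 2.22 times on chromosome 6, and on the X it was 0.514 times that of the wild type. Of the 1780 Spo11KO-only peaks, 4 were on the X (0.225%). The difference was uneven between kinds of site. Of 30 wild-type X peaks at hotspots only, 5 were found in Spo11KO (16.7%), against 299 of 605 on autosomes (49.4%), a difference of -32.8 points (-42.9 to -15.4). Of 31 X peaks at CTCF peaks only, 25 were found (80.6%), against 497 of 588 on autosomes (84.5%; difference -3.88 points, -21.0 to 6.76, not called). Of the 25 X hotspot peaks not found, 17 had a MEI4 peak in Spo11KO, 8 an IHO1 peak and 0 a SYCP3 peak, while 22 and 21 had IHO1 and SYCP3 in the wild type. The X share of other lists also differed between the wild type and Spo11KO, with 6.17% and 1.34% for IHO1, 2.83% and 0.802% for SYCP3, and 3.58% and 1.86% for MEI4. HORMAD1 lists of Mei4KO and Iho1KO had low X shares too, 62 of 5275 peaks (1.18%) and 40 of 3149 (1.27%). In Prdm9KO it was 31 of 1009 (3.07%). A low X share was thus not particular to Spo11KO.

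Wide peaks at neither a hotspot nor a CTCF peak lay near the distal end of chromosome 9. In its last 1 Mb up to the most distal peak of any list (chr9:123495096-124495095), the wild type had 45 HORMAD1 peaks covering 249 kb, of which 38 were shared. Spo11KO had 37 peaks covering 278 kb, of which 25 were shared. Their median widths were 2932 and 3288 bp. Of these peaks, 38 in the wild type and 32 in Spo11KO lay at neither kind of site. Pairs at neither narrowed little over the whole lists (2201 to 2028 bp). The distal 1 Mb of other chromosomes differed from this. On chromosome 4 the medians were 8058 bp in the wild type (10 peaks) and 2034.5 bp in Spo11KO (8 peaks). On chromosome 13 they were 591 bp (5 peaks) and 2499 bp (6 peaks). The widest shared peak at neither kind of site was chr9:124262701-124285935 at Gm39469 (23235 bp), which touched 2 wild-type peaks. The widest Spo11KO-only ones were chr9:123753378-123773432 at the chemokine receptor gene Ccr9 (20055 bp) and chr3:90363391-90380807 at Gatad2b (17417 bp). The widest wild-type-only ones were chr9:123943957-123958930, 3196 bp from Ccr1 (14974 bp), and chr11:23494347-23508046 at Ahsa2 (13700 bp). In the last 1 Mb of the X before its most distal peak, 13 wild-type peaks covered 40.7 kb and 6 Spo11KO peaks covered 14.5 kb.

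Most peaks of a single genotype had no peak of the other genotype within 10 kb. The median distance of a Spo11KO-only peak to the nearest wild-type peak was 330 kb, and 131 (7.36%) lay within 10 kb. For wild-type-only peaks the median distance to a knockout peak was 196 kb, and 87 (14.7%) lay within 10 kb. The 2 medians are to lists of unlike length. The spacing expected from list length was not computed, so they do not show peaks to be far apart or close. Gene promoters held 11.7% of wild-type-only and 5.79% of shared wild-type peaks (difference 5.87 points, 3.07 to 8.95), and 4.21% of Spo11KO-only and 4.57% of shared knockout peaks (-0.352 points, -1.97 to 1.14, not called). Over the whole lists, promoters held 7.81% of wild-type and 4.35% of Spo11KO peaks. Among wild-type-only peaks, 22.1% of those at neither kind of site and 6.34% of those at hotspots only were at a promoter. Shared wild-type peaks had the same order, with 12.4% and 3.62%.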

How the data were processed

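Chromatin immunoprecipitation libraries of synchronised mouse testis were analysed as deposited peak lists of 13 groups, 1 list per group, with no per-sample column left unused. Bowtie2, MACS2 and the mm10 build are named in the submitters' processing notes; versions, thresholds and pooling of replicates are not given in the sources used here. The protein lists hold positions only, and the signal of each protein's own knockout was subtracted by the authors, per the series' design text. The CTCF list carries a deposited score per peak, of which 192 were below 0, and the DMC1 list a deposited signal value per hotspot. Depth is unknown.

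Peaks were joined by an overlap of at least 1 bp with Python 3.11.15, pandas 2.3.3, numpy 2.4.6 and scipy 1.17.1. Shares have Wilson intervals, differences Newcombe intervals (paired for the same sites) and medians order-statistic intervals, all at 95%. The interval and overlap code was tested on simulated data. Where a peak overlapped several sites, the highest value was used. Promoter windows came from RefSeq (21263 windows of protein-coding genes, in 17492 genes of 21900). No genome sequence was used, so hotspot sequences are not shown. Members, lists and comparisons were chosen with earlier results of these data known. Named sites follow 1 rule: per class, the 3 peaks at the highest DMC1 values, the 3 at the highest CTCF scores and the 2 widest at neither, chromosome 18 left out; some of these sites are not reported here. The printed promoters, the comparison of X and autosomes, the distal 1 Mb windows and the comparison between proteins in the share of narrower pairs were chosen after the values were seen. Alternatives changed the overlap rule, chromosomes, list length, peak width and site strength.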

Additional observations from a re-analysis of the deposited data

How the results depend on the processing

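Each of 17 results was recomputed under alternatives, 111 values in all, of which 87 kept their direction and their side of the threshold or moved less than their interval. The share of wild-type peaks found in Spo11KO was 58.3% with 1 kb windows at the centres, 51.2% in the wider 50% of each list, 47.4% with lists of equal length and 68.2% when peaks within 1 kb counted as shared. The share of Spo11KO peaks found in the wild type was 34.5%, 30.7% and 46.9% under the first 3 of these. The CTCF difference of the knockout classes (4.64 points) was no longer called with the 50% overlap (3.37), the centre windows (0.00169), equal lists (2.16), the 50% of CTCF peaks with the higher score (2.92) and within classes of width (1.86), and was -1.23 among peaks not at hotspots. The difference in the strongest 25% of hotspots (0.840 points) was called with the 50% overlap (3.71), the centre windows (2.29) and autosomes (1.53), and had the other sign in the wider 50% (-3.53), with equal lists (-4.90) and in the strongest 10% (-5.36). The difference in the strongest 10% was no longer called with the centre windows (-1.74) and had the other sign with the 50% overlap (1.16). The median log2 width ratio of all pairs was -0.85 in the wider 50%, and that of CTCF pairs -0.35 there and -0.044 with equal lists. The cause was not tested. Width ratios of hotspot and CTCF pairs, the X share and both classes of the strongest hotspots, the first and the second 10%, were added after the data were seen. Counting peaks within 1 kb as shared does not apply to the shares of hotspots and CTCF peaks and was not run there. No paired analysis was possible because there was 1 list per group, so leaving out a replicate was not possible either. Depth and thresholds are unknown, and whether they set the lengths and widths of the lists was not tested.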
